A study of Mus musculus with 6 samples.

Results

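The genes described are 10 macrophage and leukocyte markers, Ptprc, Cd68, Adgre1, Csf1r, Lyz2, Cd14, C1qa, C1qb, Tyrobp and Clec4n, taken by symbol from a table of 30315 mouse genes, where each of the 10 has a row. RNA-Seq was performed on primary renal tubular epithelial cells (TECs) of C57BL/6 mice, the epithelial cells that line the kidney tubules, taken from the organ and cultured. All 6 libraries came from cells transfected at about 50% confluence, 12 h before hypoxia/reoxygenation (H/R), an in vitro model of ischemia-reperfusion injury with 6 h without glucose at 1.0% O2 followed by 18 h of reoxygenation in complete medium. Of these libraries, 3 received siSox9, a small interfering RNA (siRNA) against the transcription factor gene Sox9, and 3 received the control siRNA siNC. No culture without siRNA and no culture without H/R is among them. The labels number the libraries 1 to 3 in each group and do not say whether they came from separate mice or cultures, so the spread between them may be technical.

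Macrophages are phagocytic leukocytes that live in the kidney interstitium, close against the tubules, and more are recruited after injury. They depend on the receptor encoded by Csf1r, whose ligands CSF1 and IL-34 can be made by tubular cells, and they secrete C1q, the recognition component of the classical complement pathway. Digestion of kidney tissue frees interstitial cells along with tubules, so the level of leukocyte genes in a TEC culture can serve as a measure of the leukocyte RNA in it.

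All 10 marker genes were detected in all 6 libraries, and their summed level overlapped between siSox9 and siNC. Together they had 190.9, 203.4 and 214.2 FPKM in siSox9 replicates 1, 2 and 3 and 197.0, 195.3 and 195.2 FPKM in siNC replicates 1, 2 and 3. FPKM are fragments per kilobase of exon, scaled by the number mapped in each library. Levels can be compared between genes only as far as the exon length used fits the RNA. Between libraries, the FPKM of all genes summed to 280915.7 to 306895.6, and on the TPM scale, which sets these sums equal, the siSox9 sum of the 10 genes was 105.6% of siNC. The mean sum was 202.9 ± 11.6 FPKM in the siSox9 group and 195.8 ± 0.995 FPKM in the siNC group (SD, n = 3 each), which put siSox9 at 103.6% of siNC. Of the 9 genes with enough signal to be tested, 1 passed, Lyz2, which was higher with siSox9, where 30.4% of all genes tested passed and 12.8% were higher. In the same fit with no minimum level, which holds all 10, 0 passed, next to 9.6% of 28122 genes. Lyz2 had an adjusted p of 0.0575 there (limma), while other fits that hold all 10, given below, called it. Without Lyz2, the highest of the 10 genes, the sum of the other 9 was 110.4 to 126.4 FPKM with siSox9 and 119.7 to 129.0 FPKM with siNC, or 96.4% of siNC. As a share of all FPKM of a library, the 10 genes made up 0.0664% to 0.0729% with siSox9 and 0.0636% to 0.0701% with siNC. In a bulk culture, the number of macrophages and the RNA per macrophage cannot be told apart, and which cells transcribed the genes was not tested.

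**Figure D1:**
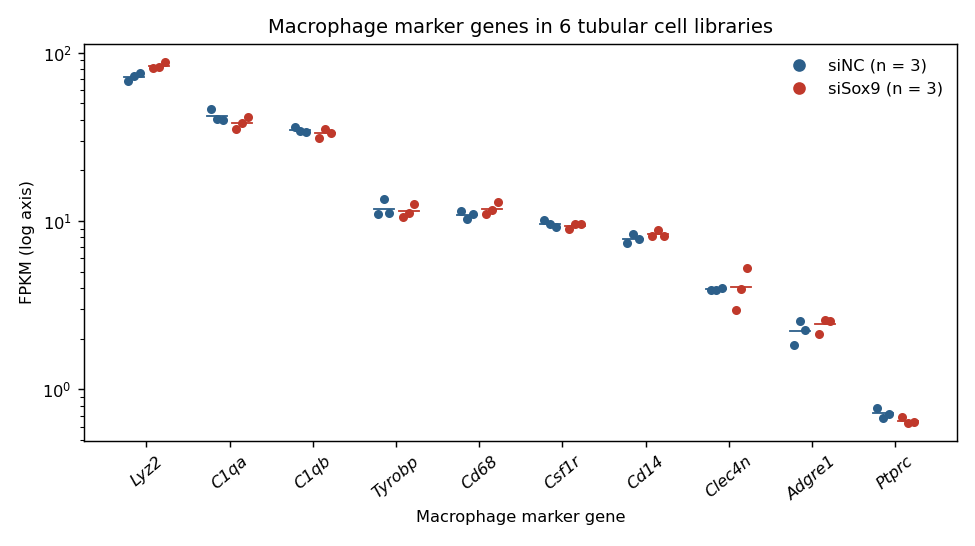
FPKM of the 10 macrophage marker genes (log axis) in each of the 6 libraries, 3 siNC and 3 siSox9. Points are libraries and short lines group means; the points of the groups overlap for every gene except Lyz2, where the siSox9 libraries (80.5 to 87.8 FPKM) lie above the siNC libraries (68.0 to 75.5 FPKM).

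The scaling of the FPKM implied totals of 23893203 to 25725738 reads per library. Whole reads were recovered for 20567648 to 22229186 of them, and 6808 to 7465 were on the 10 genes. The target of the knockdown, Sox9, was at 8.93, 8.61 and 9.07 FPKM with siSox9 and at 25.7, 26.5 and 25.6 FPKM with siNC. Limma on log2(FPKM + 1), with Benjamini-Hochberg adjustment over 12009 genes whose mean reached 1 FPKM, put 3650 genes past an adjusted p of 0.05, which is 30.4% of the genes tested, 12.8% being higher and 17.6% lower with siSox9. When siSox9 replicate 2 was left out, 2424 genes passed. With values centred on the median of each library, 1959 genes were higher and 1765 lower. Among the 20 tubule epithelium markers examined, the keratin Krt8 was the most abundant, at 2081 to 2190 FPKM with siSox9 and 2029 to 2141 FPKM with siNC. Of 11 tested, 2 rose and none fell, beside 12.8% and 17.6% of all genes. They were the kidney cadherin Cdh16 (log2 fold change of 0.36, limma adjusted p = 0.0003) and the injury marker Havcr1 (0.18, limma adjusted p = 0.0366), which was at 0.0726 to 0.0975 when siSox9 replicate 2 or 3 or siNC replicate 1 or 3 was left out. The segment markers Slc34a1, Umod, Slc12a1, Slc12a3 and Aqp2, and the proximal tubule factor Hnf4a, had means below 0.1 FPKM.

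The order of the marker genes by level per length was Lyz2, C1qa, C1qb, Tyrobp, Cd68, Csf1r, Cd14, Clec4n, Adgre1 and Ptprc. Lyz2 alone took 34.5% to 42.2% of their summed FPKM. The ranges of C1qa and C1qb over the 6 libraries overlapped, although C1qa was above C1qb in 6 of 6. Those of Tyrobp and Cd68 overlapped too, and Tyrobp was the higher in 2 of 6. The other neighbours in the order did not overlap, the closest being Csf1r and Cd14, whose nearest libraries had 8.91 and 8.84 FPKM. Among the 12009 genes tested, Lyz2 stood at the 95.4th percentile of mean FPKM, C1qa at the 89.8th, Csf1r at the 57.7th and Adgre1 at the 17.4th.

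Ptprc encodes CD45, the phosphatase on the surface of all leukocytes. It lies on the − strand of chromosome 1 (138062861 to 138175708 in GRCm38, the build of the positions in the table) and was the lowest of the markers in FPKM. It had 0.690, 0.632 and 0.638 FPKM with siSox9 and 0.781, 0.681 and 0.712 FPKM with siNC. The groups overlapped, with siSox9 replicate 1 above siNC replicate 2. As its mean was below 1 FPKM, Ptprc was tested without the filter, where its log2 fold change was -0.06 (95% confidence interval -0.20 to 0.08, limma adjusted p = 0.599). The low FPKM stood on 279 to 355 reads per library, since the exons of Ptprc add up to 18313 bases. In reads, Ptprc was above Tyrobp (181 to 218), Adgre1 (148 to 214) and Clec4n (108 to 178), and below Lyz2, C1qa, C1qb and Csf1r.

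Cd68 and Adgre1 are the classical tissue macrophage markers, Cd68 a lysosomal glycoprotein and Adgre1 the F4/80 antigen. Cd68 (chromosome 11, − strand, 69664213 to 69666153) had 11.0, 11.6 and 12.9 FPKM with siSox9 and 11.4, 10.3 and 11.0 FPKM with siNC. The highest library was siSox9 replicate 3 and the lowest siNC replicate 2, with the other 4 between them in mixed order. Its log2 fold change was 0.10 (SE 0.06, 95% confidence interval -0.04 to 0.25, limma adjusted p = 0.241). Adgre1 (chromosome 17, + strand, 57358686 to 57483529) had 2.14, 2.60 and 2.55 FPKM with siSox9 and 1.84, 2.55 and 2.26 FPKM with siNC. Here siNC replicate 1 was the lowest, and the groups overlapped. The log2 fold change of Adgre1 was 0.10 (SE 0.10, 95% confidence interval -0.13 to 0.32, limma adjusted p = 0.480).

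Csf1r, on chromosome 18, encodes the receptor tyrosine kinase through which macrophages receive their survival signal. Its FPKM were 8.91, 9.61 and 9.61 with siSox9 and 10.2, 9.55 and 9.23 with siNC. The lowest library was a siSox9 library and the highest a siNC library, and the other 4 lay between 9.23 and 9.61 FPKM. The difference was -0.04 on the log2 scale (SE 0.05, 95% confidence interval -0.15 to 0.07, limma adjusted p = 0.577). Exons of Csf1r overlap exons of Hmgxb3, and the strand setting of the counting is not given in the sources used here, so reads of the overlap cannot be told apart.

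Lyz2, the lysozyme gene of myeloid cells (chromosome 10, − strand, 117277331 to 117282321), had 80.5, 81.8 and 87.8 FPKM with siSox9 and 68.0, 72.1 and 75.5 FPKM with siNC. All 3 siSox9 libraries were above all 3 siNC libraries. The means were 83.4 ± 3.91 FPKM with siSox9 and 71.9 ± 3.78 FPKM with siNC (SD, n = 3 each), and siSox9 was at 116% of siNC. The log2 fold change was 0.21 (SE 0.05, 95% confidence interval 0.10 to 0.33, limma adjusted p = 0.0175), and an exact two-sided permutation test over the libraries gave p = 0.1, the smallest that 3 against 3 allow. Without the filter on low genes the adjusted p was 0.0575. Lyz2 shared 15.4% of its 50-base stretches with its neighbour Lyz1, a gene of intestinal Paneth cells, to which 1 read in 1 siSox9 library and none in the other libraries had been assigned.

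Cd14, on chromosome 18, encodes the co-receptor for bacterial lipopolysaccharide and is also made by some epithelial cells. Its FPKM were 8.18, 8.84 and 8.09 with siSox9 and 7.35, 8.40 and 7.86 with siNC. The lowest 2 libraries were siNC libraries, while siNC replicate 2 lay above siSox9 replicates 1 and 3. The log2 fold change was 0.08 (SE 0.05, 95% confidence interval -0.05 to 0.21, limma adjusted p = 0.310).

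C1qa and C1qb encode chains A and B of C1q and lie in the same orientation on the − strand of chromosome 4, at 136895917 to 136898803 and 136880129 to 136886187, with the gene of the remaining chain, C1qc, between them. C1qa had 34.9, 38.1 and 41.3 FPKM with siSox9 and 46.4, 40.2 and 39.5 FPKM with siNC. The lowest 2 libraries carried siSox9 and the highest was siNC replicate 1, but siSox9 replicate 3 lay above siNC replicates 2 and 3. Its log2 fold change was -0.14 (SE 0.08, 95% confidence interval -0.32 to 0.05, limma adjusted p = 0.228). C1qb had 31.0, 35.0 and 33.4 FPKM with siSox9 and 36.2, 34.0 and 34.0 FPKM with siNC, again with overlap and with siSox9 replicate 1 lowest and siNC replicate 1 highest. The log2 fold change of C1qb was -0.07 (SE 0.05, 95% confidence interval -0.18 to 0.05, limma adjusted p = 0.358). C1qc, which is not one of the 10, had 14.7, 14.8 and 16.1 FPKM with siSox9 and 17.3, 16.4 and 18.0 FPKM with siNC, without overlap. It fell by 0.17 on the log2 scale (SE 0.05, limma adjusted p = 0.0396). C1qc passed in 7 of 16 alternatives, and leaving out siSox9 replicate 1 or 2 or siNC replicate 1 or 3 took it to an adjusted p of 0.0734 to 0.123.

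Tyrobp and Clec4n belong to the signalling of innate receptors. Tyrobp (chromosome 7, + strand, 30413760 to 30417585) encodes DAP12, the adaptor through which TREM and related receptors signal to the kinase SYK. It had 10.5, 11.2 and 12.6 FPKM with siSox9 and 10.9, 13.5 and 11.1 FPKM with siNC. The lowest library carried siSox9 and the highest siNC, and the groups overlapped. Its log2 fold change was -0.04 (SE 0.09, 95% confidence interval -0.26 to 0.17, limma adjusted p = 0.759), and it turned to 0.011 without siSox9 replicate 1 and to 0.049 without siNC replicate 2. Clec4n (chromosome 6, + strand, 123229843 to 123247021) encodes Dectin-2, a receptor for fungal mannans. It had 2.96, 3.97 and 5.25 FPKM with siSox9 and 3.89, 3.91 and 4.02 FPKM with siNC. Both its lowest and its highest library carried siSox9, and the 3 siNC libraries lay close together. The log2 fold change of Clec4n was 0.01 (SE 0.15, 95% confidence interval -0.34 to 0.35, limma adjusted p = 0.971), and it was -0.16 without siSox9 replicate 3.

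**Figure D2:**
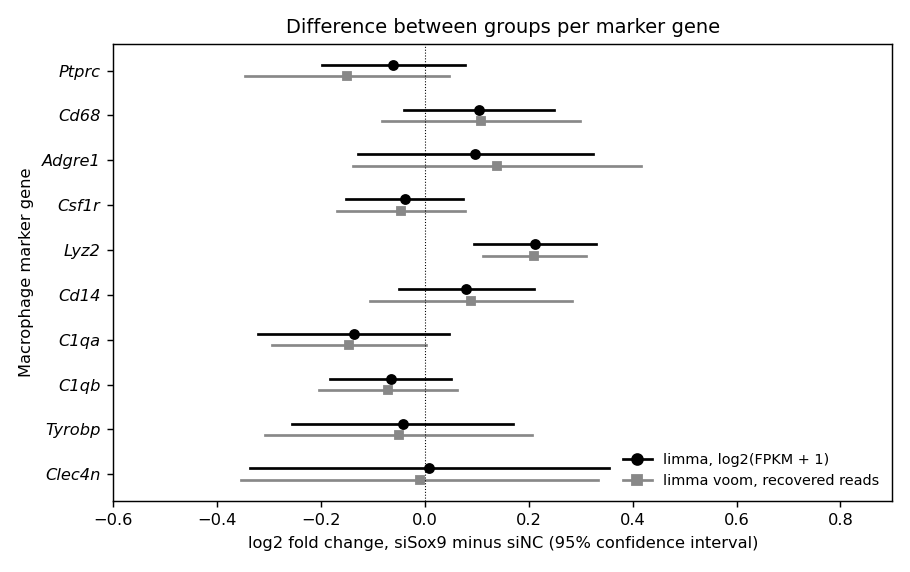
Fold change of each marker gene between groups (x axis, log2, siSox9 minus siNC) with its 95% confidence interval. Circles are limma on log2(FPKM + 1), in the fit without the filter for Ptprc, and squares are limma voom on the recovered reads without the filter. The Lyz2 interval (0.10 to 0.33) lies above 0, and the limma intervals of the other 9 genes include 0.

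Of the 9 marker genes whose mean reached 1 FPKM, 1 was past the threshold, higher with siSox9, and 8 were not past it, next to 30.4% of all genes tested. Without the filter 0 of the 10 passed in limma, next to 9.6% of 28122 genes, with 1 at an unadjusted p under 0.05, and in limma voom on the recovered reads without the filter 1 passed, Lyz2, next to 14.3% of 26661 genes. The groups did not overlap in 1 of the 10, Lyz2, next to 46.3% of all genes tested. With Ptprc, 5 fold changes were above 0 and 5 below. The median log2 fold change of the 9 genes was 0.01, where that of all genes tested was -0.01, and the median absolute log2 fold change was 0.08 against 0.11. Taken over the 10 genes, the 95% confidence intervals reached from -0.34 to 0.35, both ends being those of Clec4n. The narrowest interval was that of Csf1r.

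The markers varied between libraries of the same group by different amounts. With siSox9, the FPKM of Clec4n had a coefficient of variation of 28.3%, where counting its reads alone would give 8.36%. With siNC the same gene varied by 1.89%, with 8.52% from counting. Lyz2, with 2221 to 2762 reads per library, varied by 4.69% with siSox9 and 5.26% with siNC, where counting gives 1.91% and 2.07%. Adgre1, on 148 to 214 reads, varied by 10.3% and 16.2%. Over the 10 genes, siSox9 replicate 1 was the lowest library for 5 and siSox9 replicate 3 the highest for 3, while siNC replicate 1 was the highest for 4 and the lowest for 3. In the summed level, the siSox9 libraries had an SD of 11.6 FPKM and the siNC libraries one of 0.995 FPKM, a difference that was not tested.

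**Figure D3:**
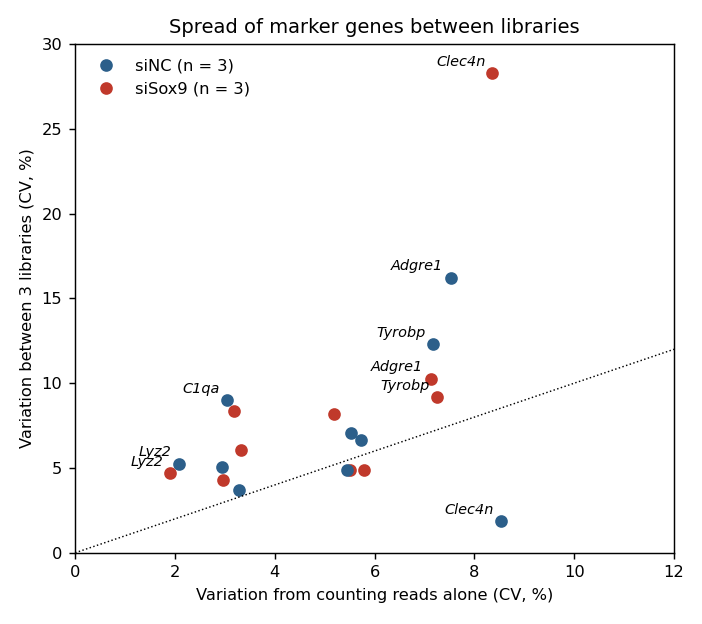
Coefficient of variation of each marker gene over the 3 libraries of a group (y axis, %) against that expected from counting its reads alone (x axis, %). Points are genes in siNC or siSox9, and the dotted line marks equal values. Clec4n with siSox9 (28.3% against 8.36%) is the highest point, and Clec4n with siNC (1.89% against 8.52%) lies furthest below the line.

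Promoter sequences, from 250 bases before to 50 after a gene's start, were at hand for 4 of the marker genes, Ptprc, Cd68, Lyz2 and C1qb, in RefSeq on GRCm38.p6. They were searched on both strands for GAGGAA, the core letters bound by the myeloid transcription factor that Spi1 encodes, which read TTCCTC on the other strand. The letters occurred in promoters of Ptprc, Cd68 and C1qb, 3 of the 5 promoters listed for the 4 genes, and in 28.3% of all 32851 promoters. Ptprc, Cd68 and C1qb are shown as marker genes, and which cells of the cultures transcribed them was not tested. In each window the motif is in capitals and the sequence runs 5′ to 3′ on the − strand, on which all 3 genes lie:
Ptprc, chr1:138175446-138175475, motif 158 bases before the start: tgttttcctttaGAGGAAaattgagacgaa
Cd68, chr11:69666378-69666407, motif 225 bases before the start: tttcttaccaatGAGGAAagggcttcccat
C1qb, chr4:136886213-136886242, motif 30 bases before the start: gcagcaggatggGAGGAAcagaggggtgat
Cd68, chr11:69666124-69666153, motif on the other strand 29 bases after the start: gaggcttttcatTTCCTCttccaagagaag
Starts are those of RefSeq, and for Ptprc the start differs from that of the position given above (138062861 to 138175708), inside which its window lies. The Lyz2 promoter did not hold these letters within its window. A match describes the letters and not binding, which was not measured here. Spi1 itself had a log2 fold change of -0.22 (limma adjusted p = 0.230).

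Markers of myeloid cells outside the 10 genes were examined as a list of 40, of which 27 reached a mean of 1 FPKM. None was past the threshold in the higher direction and 2, C1qc and Cx3cr1, were past it in the lower, beside 12.8% and 17.6% of all genes tested. With 1 library left out 0 to 3 passed, where 2424 to 3654 of all 12009 genes did. None passed with TPM, where 2571 of 12009 genes did, or without the filter, where 9.6% did. In limma voom 1 was higher and 4 lower, beside 14.3% and 21.4% of all genes. The log2 fold change was below 0 for 23 of the 27, with a median of -0.11 where the median of all genes was -0.01. Over 16 alternatives this median stayed between -0.13 and -0.04. The most abundant, the lysosomal protease gene Ctss, had 26.2, 27.7 and 31.3 FPKM with siSox9 and 27.9, 30.1 and 27.6 FPKM with siNC, with a log2 fold change of -0.01 (limma adjusted p = 0.929). Cx3cr1, the fractalkine receptor of resident kidney macrophages, had 1.53, 1.62 and 1.46 FPKM with siSox9 and 2.101, 1.85 and 1.93 FPKM with siNC, without overlap. Its log2 fold change was -0.22 (limma adjusted p = 0.0323). It passed in 5 of 15 alternatives and was at 0.0605 to 0.0876 when any library except siNC replicate 2 was left out. Cd163, Lyve1, Ccr2 and Folr2, which mark subsets of macrophages and monocytes, had means below 0.1 FPKM.

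The genes listed for other leukocytes were low in the same libraries. The highest means were 0.963 FPKM for Zbtb46 (dendritic cells), 0.848 FPKM for Ms4a2 (mast cells) and 0.748 FPKM for Lck (T cells). These lay above the mean of Ptprc, at 0.689 FPKM, a value that rests on 279 to 355 reads per library spread over 18313 bases of exons. The markers of T cells, B cells, NK cells, neutrophils, dendritic cells and mast cells held no gene with a mean of 1 FPKM or more, and none of these 6 lists summed to more than 1.62 FPKM in any library. T cell markers summed to 0.759 to 1.17 FPKM with siSox9 and 1.14 to 1.50 FPKM with siNC, with Lck as the highest gene. B cell markers summed to 0.0742 to 0.405 and 0.0872 to 0.288 FPKM, and neutrophil markers to 0.436 to 1.12 and 0.519 to 0.708 FPKM. Dendritic cell markers summed to 1.19 to 1.43 FPKM with siSox9 and 1.48 to 1.62 FPKM with siNC, mast cell markers to 0.743 to 0.987 and 1.10 to 1.46 FPKM, and NK cell markers to 0.286 to 0.367 and 0.275 to 0.557 FPKM. S100a8, Cd8a, Nkg7 and Gzmb, which define neutrophils, cytotoxic T cells and NK cells, were listed at 0 in all 6 libraries. The 10 endothelial markers summed to 3.53 to 3.92 FPKM with siSox9 and 4.03 to 4.98 FPKM with siNC. The 7 podocyte markers summed to 15.7 to 17.1 FPKM with siSox9 and 22.3 to 23.3 FPKM with siNC, and 2 of the 3 tested, Podxl and Synpo, fell, where 17.6% of all genes did (log2 fold changes of -0.57 and -0.33, limma adjusted p of 0.0002 and 0.0064), while Nphs1 was listed at 0 in all libraries. The part of endothelial and podocyte RNA in the values of the marker genes was not tested. These sums were taken over 3 mast cell, 6 neutrophil, 7 B cell, 7 NK cell, 7 dendritic cell and 8 T cell genes, so a list that is short may miss RNA of its cells. In every library, the 10 macrophage marker genes summed to at least 120.6 times the sum of any of the 6 lists. The lists hold different genes, so this is a ratio of summed FPKM and not of cells. Itgax, which dendritic cells share with macrophages, was listed with the other myeloid markers (mean of 4.38 FPKM), and the class II genes were listed apart.

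**Figure D4:**
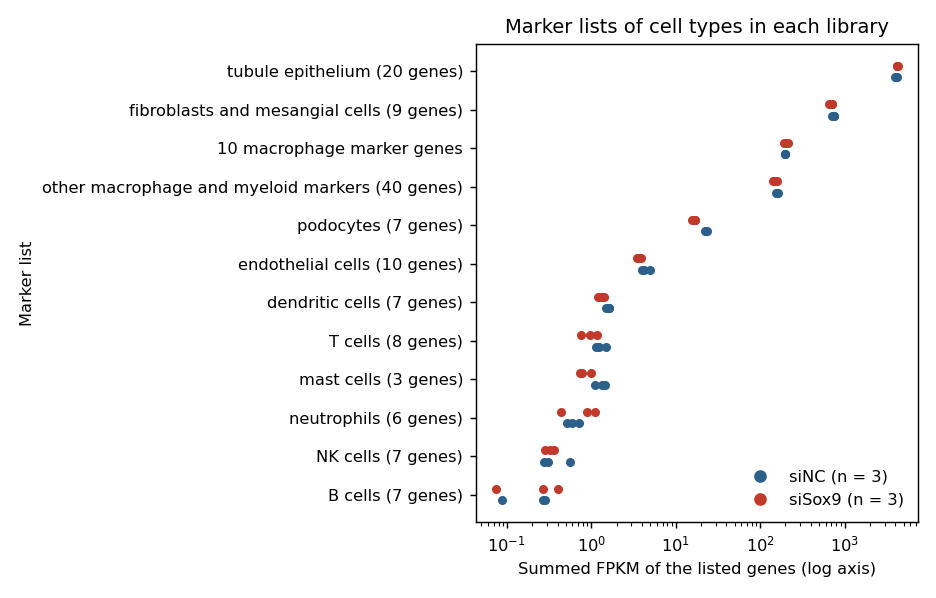
Summed FPKM of the marker genes of each cell type (log axis) in the 3 siNC and 3 siSox9 libraries, 1 point per library. Tubule epithelium is highest (4010 to 4339 FPKM), the 10 macrophage marker genes lie at 190.9 to 214.2 FPKM, and the 6 lists of other leukocytes lie at or below 1.62 FPKM. The list of fibroblasts and mesangial cells is carried by Acta2, with a mean of 706.7 FPKM. In the tubule epithelium list the keratins Krt8 (mean of 2106 FPKM), Krt18 and Krt19 are the most abundant genes.

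The ligands of the Csf1r receptor were both expressed. Csf1 had 161.8, 165.4 and 154.0 FPKM with siSox9 and 109.8, 102.8 and 106.5 FPKM with siNC, with every siSox9 library far above every siNC library. Its log2 fold change was 0.59 (SE 0.04, limma adjusted p = 0.000128), or 151% of siNC, and it passed in all 16 alternatives. Il34 had 16.1, 17.3 and 13.8 FPKM with siSox9 and 15.6, 12.3 and 14.2 FPKM with siNC, with overlap and a log2 fold change of 0.16 (limma adjusted p = 0.279). Of 11 genes of the Csf1r axis, 7 were tested and 1, Csf1, was past the threshold, beside 30.4% of all genes. Csf1r itself, at 97.1% of siNC, was not past it.

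Cd14 works with TLR4 and MD-2, the latter encoded by Ly96, in the recognition of lipopolysaccharide. Tlr4 had 3.55, 4.09 and 4.03 FPKM with siSox9 and 2.52, 2.82 and 2.78 FPKM with siNC, without overlap, and rose by 0.40 on the log2 scale (limma adjusted p = 0.0034). Tlr2, a receptor for bacterial lipoproteins that also uses CD14, had 8.99, 8.48 and 8.57 FPKM with siSox9 and 11.6, 10.8 and 10.6 FPKM with siNC. It fell by 0.31 (limma adjusted p = 0.0026). Both passed in every alternative in which they were fitted. Traf6, an adaptor ligase downstream of these receptors, rose by 0.19 (limma adjusted p = 0.0216), with an adjusted p of 0.0590 to 0.0683 when siNC replicate 2 or 3 was left out. Ly96 had a log2 fold change of 0.24 (limma adjusted p = 0.0943). Of 10 genes tested in this list, Cd14 included, 2 rose, 1 fell and 7 were not past the threshold, a share close to the 30.4% of all genes tested.

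Receptors that signal through Tyrobp or its relative Fcer1g, together with the Syk pathway, formed a list of 20 genes of which 8 were tested. Fcer1g had 11.3, 10.003 and 12.6 FPKM with siSox9 and 12.4, 10.1 and 11.1 FPKM with siNC, close to Tyrobp in level. Its log2 fold change was 0.01 (limma adjusted p = 0.962). Syk had 1.18, 1.11 and 1.18 FPKM with siSox9 and 1.47, 1.50 and 1.48 FPKM with siNC, without overlap. It was the 1 gene of the 8 past the threshold, where 30.4% of all genes were, with a log2 fold change of -0.21 (limma adjusted p = 0.0381). It passed in 3 of 15 alternatives and was at 0.0729 to 0.115 whichever library was left out. Plcg2, an effector of Syk and the most abundant gene of the list, had a log2 fold change of 0.03 (limma adjusted p = 0.597).

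Macrophages present antigen on MHC class II molecules. Of 7 class II and costimulatory genes tested, 4 fell and 1 rose, beside 17.6% and 12.8% of all genes, with a median log2 fold change of -0.39 where that of all genes was -0.01. Without the filter 1 fell, where 5.63% of genes did. When siSox9 replicate 1 or 3 was left out 2 fell, where 1575 and 1645 of 12009 genes did. In limma voom, where 3 of the 7 could be fitted, the median was -0.16. Cd74, the invariant chain, had 21.4, 25.1 and 22.5 FPKM with siSox9 and 34.9, 28.6 and 27.9 FPKM with siNC, and fell by 0.39 on the log2 scale (limma adjusted p = 0.0187). H2-Aa, H2-Ab1 and H2-Eb1, which encode the class II chains, fell by 0.42, 0.62 and 0.53 (limma adjusted p of 0.0093, 0.0295 and 0.0122). H2-Ab1 had 4.39, 6.71 and 6.29 FPKM with siSox9 and 11.5, 9.21 and 7.67 FPKM with siNC, so the groups did not overlap but the libraries within each were spread. Leaving out siSox9 replicate 1 or 3 took Cd74 to an adjusted p of 0.0585 to 0.0631, and leaving out siSox9 replicate 1 or 3 or siNC replicate 1 or 2 took H2-Ab1 to 0.0539 to 0.0706. Cd40, a costimulatory receptor that epithelial cells also carry, rose by 0.33 (limma adjusted p = 0.0012). When 1 library was left out, 3 to 5 of the 7 genes passed. Whether its genes were transcribed in macrophages or in tubular cells was not tested.

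**Figure D5:**
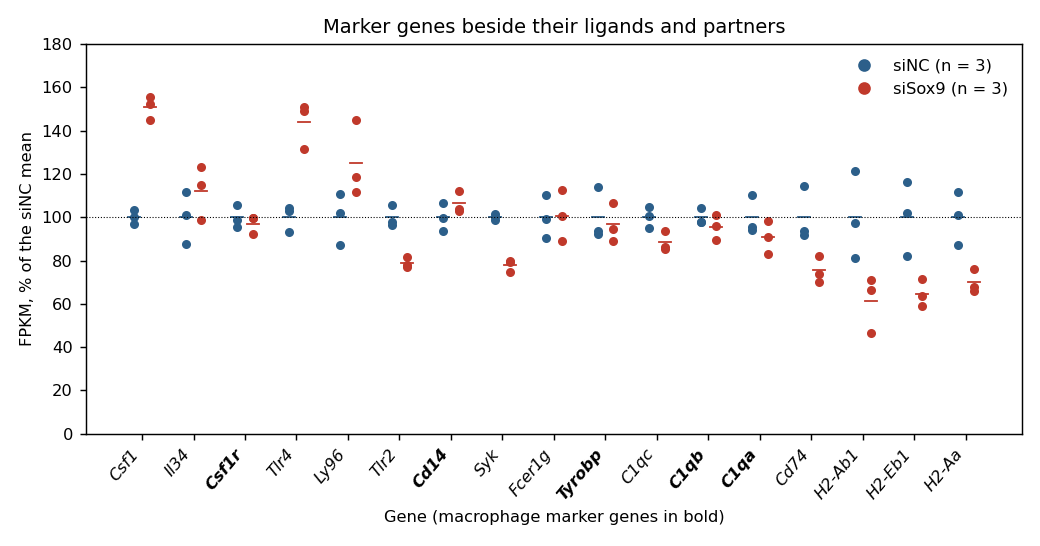
FPKM of marker genes (in bold) and of genes that act with them, in each library as a percent of the siNC mean (y axis), with short lines for group means. Csf1 (151% of siNC) and Tlr4 (144%) are above the siNC libraries and Tlr2 (79.0%), Syk (77.8%) and the class II genes below them, while Csf1r, Cd14, Tyrobp, C1qb and C1qa overlap with siNC.

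Of 14 genes of macrophage activation, 13 had a row and 4 were tested. Of these 4, 2 rose and 1 fell, beside 12.8% and 17.6% of all genes. Without the filter 1 rose and 1 fell, where 3.97% and 5.63% of genes did. Ptgs2, the inducible cyclooxygenase, had 64.8, 64.0 and 70.6 FPKM with siSox9 and 49.1, 51.4 and 47.8 FPKM with siNC, and rose by 0.42 on the log2 scale (limma adjusted p = 0.0009). Tnf had 1.85 ± 0.143 FPKM with siSox9 and 1.32 ± 0.0839 FPKM with siNC (SD, n = 3 each). It rose by 0.29 on the log2 scale (limma adjusted p = 0.0155), and the adjusted p became 0.0515 without siSox9 replicate 3 and 0.114 in limma voom on the recovered reads without the filter. Cd38, an enzyme that consumes NAD, had 3.21, 3.04 and 2.99 FPKM with siSox9 and 5.08, 4.89 and 4.96 FPKM with siNC, and fell by 0.55 (limma adjusted p = 0.0002). Il1b had 1.32, 2.17 and 1.89 FPKM with siSox9 and 1.44, 1.50 and 1.27 FPKM with siNC, with overlap and an adjusted p of 0.221. None of these genes belongs to macrophages alone, and their cell of origin was not tested.

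The genes whose pattern was most like that of the markers were found by the Pearson correlation, over the 6 libraries, of log2(FPKM + 1) with the mean of the 10 standardized marker profiles. They were Gm5931 (r = 0.973), Dok7 (r = 0.969), Nfkbid (r = 0.962), Gpn1 (r = 0.962) and Clec5a (r = 0.961). All 5 were low genes, with means of 1.15 to 2.87 FPKM. Clec5a, a myeloid receptor that signals through DAP12, had 1.50, 1.95 and 2.04 FPKM with siSox9 and 1.74, 1.88 and 1.66 FPKM with siNC, lowest in siSox9 replicate 1 and highest in siSox9 replicate 3. Nfkbid, a regulator of NF-κB, lies 4146 bases from the end of Tyrobp on chromosome 7. Of 12000 genes, 36 reached a correlation of 0.9, and with only 6 libraries, 3 for each siRNA and of like depth, these values are a description.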

How the data were processed

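RNA-Seq of 3 siSox9 and 3 siNC libraries of primary TECs after H/R was used. The authors deposited 1 table of FPKM, with a row per gene and a column per library and no further scaling between libraries. The submitters' processing notes name HISAT2 2.1.0, Bowtie2 2.2.3, TopHat2 and the build mm9, without roles, yet 93.3% of the genes found in GENCODE M21 carried its GRCm38 position. The counting tool is not given in the sources used here. The columns of one siRNA bear the name siNC, and the others, which carry another siRNA name, were taken as siSox9. The marker genes, gene lists and tests were chosen with earlier results of these data known. Named genes were the 10 markers, Sox9, up to 3 most abundant and up to 3 most changed genes per list, and the 5 most like the markers. Other list members given as near or at 0, and Spi1, Ly96, Lyz1 and Itgax, were named after their values were seen.

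The siSox9 and siNC groups were compared by limma (version 3.58.1, R version 4.3.3, with a trend in eBayes) on log2(FPKM + 1) over all genes whose mean reached 1 FPKM, unpaired, with Benjamini-Hochberg adjustment. This scale understates fold changes of low genes. Whole reads were recovered from FPKM, exon length and the value of 1 read, with 93.3% of values whole within 0.02 reads, and used in limma voom as an alternative. For 915 genes, among them Adgre1, Csf1r and Cd14, another exon length than that of GENCODE M21 gave whole reads. At these depths 3 reads on 1 kb of exons are 0.117 to 0.126 FPKM, which covers counting error only. The fits were tested on simulated reads with the same dispersion for all genes and 198 changed genes among 11668 tested. The main fit called 169 of these, all in the right direction, and 17 unchanged genes. More genes were called in the real data and their spread was uneven, so error rates may differ there. Other steps used Python 3.11.15 (pandas 2.3.3, numpy 2.4.6, matplotlib 3.10.9, scipy 1.17.1).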

Additional observations from a re-analysis of the deposited data

How the results depend on the processing

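Over 154 combinations of a marker gene and an alternative (another pseudocount or filter, TPM, median-centred or quantile-normalized values, the replicate block, limma voom, each library left out), 148 kept their direction and side of the threshold. Without the filter 0 of the 10 marker genes passed in limma, where 9.6% of genes did, as Lyz2 had an adjusted p of 0.0575, while its unadjusted p was the only one under 0.05 and limma voom without the filter and limma without the filter at a pseudocount of 0.1 (adjusted p = 0.0499) called it. Of the other genes named, C1qc, Cx3cr1, Syk, Traf6, Cd74, H2-Ab1, H2-Eb1, Tnf and Havcr1 did not pass without the filter either. Lyz2 had a log2 fold change of 0.17 to 0.25 over 16 alternatives, with an adjusted p of 0.0208 to 0.0493 when a library was left out. Tyrobp turned to 0.011 and 0.049 without siSox9 replicate 1 and siNC replicate 2 (range -0.11 to 0.05 with 1 library left out), and Clec4n to -0.16 without siSox9 replicate 3 (range -0.16 to 0.17), to -0.010 in limma voom and to -0.0093 in limma voom without the filter. These causes were not tested. The summed FPKM with siSox9 was 100.7% to 106.6% of siNC with 1 library left out and 96.4% without Lyz2. Over all genes, 2424 to 3654 passed with 1 library left out. A block for the replicate number let 3262 genes pass (27.2%), with 1 marker gene, Lyz2, among them. The deviations of same-numbered libraries had correlations of 0.0649, -0.0504 and 0.00784, where all pairs ranged from -0.0817 to 0.0896. Whether same-numbered libraries share a mouse or culture cannot be told from these values. Fits without the filter using limma voom, or a pseudocount of 0.1, were added after seeing the data.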
